A study of Mus musculus with 483 samples.

Results

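Mecom, Hlf, Mllt3, Meis1, Angpt1, Ctnnal1 and Bmi1 are 7 genes grouped here as regulators named in work on blood stem cells. They were listed by name, with no measured value in the rule, but were chosen with earlier results of these data known. They are 7 of the 46078 genes in the table, and 6 of the 7 were read in 5% or more of the cells, as were the 15204 genes called measured below. Hlf was below this share, with reads in 19 of 483 cells (3.93%). For each gene the level and the share of cells with a read were described by cluster, by treatment and by block of library numbers, and its presence in the same cells as Runx1 was counted.

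The data are full-length transcript libraries (Smart-seq2) of single mouse cells, sorted as CD31+ kit+ CD45- from the embryonic aorta-gonad-mesonephros region, where the first blood stem cells arise from the wall of the aorta. A total of 239 cells were labelled Ctrl and 244 aDll4-treated, and the treatment is not spelled out beyond that name, which carries the name of the Notch ligand Dll4. The sources used here give no strain, embryonic age, dose or time, and no label ties a cell to an embryo or a culture. Each treatment was therefore counted as 1 sample, no test across samples was possible, and all intervals below cover counting error only. The authors' labels also place each cell in 1 of 7 clusters, which held 183, 145, 67, 22, 13, 33 and 20 cells in order.

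Total reads ran from 123097 to 2870618 per cell, with a median of 900286 in Ctrl and 869802 in treated cells. The library numbers fell into 2 blocks, with 176 Ctrl and 178 treated cells in block 1 and 63 Ctrl and 66 treated cells in block 2. Sex was unevenly spread over blocks and treatments. In block 1, 85 Ctrl cells carried reads of Xist and 77 carried Y-linked reads, while the treated cells held 159 with Y-linked reads and 0 with Xist (at most 1.69% by counting). In block 2 the treated cells held 61 with Xist reads and 0 with Y-linked reads (at most 4.55%), against 25 and 29 in Ctrl. Treatment and embryo of origin cannot be told apart in these cells.

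The labels call the cells hematopoietic stem cells, and the marker genes divided them. Clusters 1 to 3 carried the endothelial markers, with Cdh5, the cadherin of endothelial junctions, at 385, 338 and 275 CPM (counts per 1000000 reads of the library), against 8.83 CPM or less in clusters 4 to 7. Clusters 6 and 7 carried the blood markers, with Itga2b, an integrin of early blood cells and platelets, at 165 and 1150 CPM. Cluster 5 carried the mesenchymal and smooth muscle markers (a summed level of 7352 CPM, against 532 CPM in cluster 4). Ptprc, which encodes the CD45 excluded by the sort, stayed at 0.89 CPM or less in every cluster, and the stem cell marker Ly6a at 1.61 CPM or less. Slamf1, a marker of adult stem cells, reached 12.0 and 20.4 CPM in clusters 6 and 7 and 0.02 CPM or less in clusters 1 to 5.

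Blood stem cells form in the embryo when endothelial cells of the aorta turn on Runx1, a transcription factor required for this step, and bud from the vessel wall. Mecom (also called Evi1) is a zinc finger transcription factor, Hlf is a PAR bZIP transcription factor that marks stem cells from the embryo to the adult, and Meis1 is a homeodomain factor that partners with Hox proteins. Mllt3 (AF9) reads acylated histones and joins the elongation and Dot1l complexes, and Bmi1 is a subunit of Polycomb repressive complex 1. Angpt1 is the agonist ligand of the endothelial receptor Tie2, encoded by Tek, and Ctnnal1 is a protein related to alpha-catenin. In the mm10 annotation used, Mecom (ENSMUSG00000027684) lies at chr3:29951296-30548008, Hlf (ENSMUSG00000003949) at chr11:90336536-90390895, Mllt3 (ENSMUSG00000028496) at chr4:87769925-88033364, Meis1 (ENSMUSG00000020160) at chr11:18879817-19018985, Angpt1 (ENSMUSG00000022309) at chr15:42424723-42676977 and Ctnnal1 (ENSMUSG00000038816) at chr4:56810935-56865188, all on the minus strand. Bmi1 (ENSMUSG00000026739) lies on the plus strand at chr2:18677018-18686629. The levels of all 7 are sums over the exons of each whole gene.

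Promoter sequence is shown for Hlf and Meis1, the first because it was the rarest of these genes and the second because it held the only match to a Runx1 binding core. The table of RefSeq promoters (GRCm38.p6) held windows of 250 bases before the start for 6 of the 7 genes, 8 windows in all, among 32851 windows of 27025 genes. The Hlf window, chr11:90390918-90391167 on the minus strand, held 26 CpG pairs, marked in capitals, against a median of 6 over all windows.
Hlf: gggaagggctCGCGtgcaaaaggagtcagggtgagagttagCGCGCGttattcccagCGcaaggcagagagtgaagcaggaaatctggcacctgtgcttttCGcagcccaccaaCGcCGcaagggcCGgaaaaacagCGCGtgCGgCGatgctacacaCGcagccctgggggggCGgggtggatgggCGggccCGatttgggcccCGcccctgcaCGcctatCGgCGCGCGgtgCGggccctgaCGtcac
The windows of Mecom held 14 and 8 CpG pairs, those of Mllt3 23 and 4, and those of Meis1, Ctnnal1 and Bmi1 held 13, 18 and 21, so that 7 of the 8 windows were above the median of all genes. Searched on both strands, the Runx cores TGTGGT and TGCGGT were found in 14.05% and 5.10% of all windows and either of them in 18.6%. Among the 8 windows of these genes, 1 held a core, TGTGGT beginning 166 bases before the start of Meis1. It is in capitals in the part of that window outside annotated exons, chr11:19018986-19019219 on the minus strand.
Meis1: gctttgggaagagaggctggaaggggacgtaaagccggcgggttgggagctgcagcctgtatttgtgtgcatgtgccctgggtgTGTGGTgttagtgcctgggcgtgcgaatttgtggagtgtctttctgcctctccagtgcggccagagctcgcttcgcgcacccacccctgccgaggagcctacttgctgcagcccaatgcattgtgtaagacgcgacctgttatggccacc
These matches describe letters only, and binding was not measured in these data.

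Per kilobase of merged exons, over all cells, Meis1 had the highest level of the 7 at 4.40 CPM per kb, followed by Mecom at 3.85, Bmi1 at 2.75, Mllt3 at 2.58, Angpt1 at 1.96 and Ctnnal1 at 1.88 CPM per kb. Hlf was far below them at 0.27 CPM per kb. Runx1 lay within the range of the others at 2.39 CPM per kb. The shares of cells with a read had another order, with 58.0% for Mecom, 53.0% for Mllt3, 43.1% for Meis1, 32.5% for Bmi1, 21.1% for Ctnnal1, 11.6% for Angpt1 and 3.93% for Hlf. The median cell had reads of 2 of the 7 genes, 38 cells had none, and 24 cells (4.97%) had 5 or more.

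Mecom was lower in treated cells in both blocks and in 5 of 6 runs of library numbers. Its CPM ran in single Ctrl cells from 0 through a median of 7.30 to a highest value of 1489, and in single treated cells from 0 through a median of 0.70 to 714. The cells of the treatments overlapped over almost the whole range, and the difference lay in the share of cells with a read and in the upper range. Summed over cells, Mecom had 60.0 CPM (counting interval 59.0 to 61.0) across Ctrl and 35.4 CPM (34.6 to 36.2) across treated cells, a log2 ratio of -0.75 with 1 CPM added to both. Reads of Mecom were found in 155 of 239 Ctrl cells, or 64.9% (58.4 to 70.9, exact binomial), and in 125 of 244 treated cells, or 51.2% (44.8 to 57.7), a difference of -13.6 percentage points (-22.1 to -4.8, Newcombe). The mean of log2(CPM + 1) was 3.37 ± 3.19 in Ctrl and 2.37 ± 2.93 in treated cells (SD over 239 and 244 cells), so that the difference in means was a fraction of the spread between cells.

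The lower level of Mecom appeared in both blocks. In block 1, Ctrl cells had 57.1 CPM and treated cells 37.5 CPM (log2 ratio -0.59), and in block 2 it was 66.6 and 31.3 CPM (-1.07). The share with a read was lower by 16.5 points in block 1 (difference -16.5, -26.2 to -6.3) and by an amount whose interval spans 0 in block 2 (-5.5, -22.0 to 11.5). The library numbers divide further into 6 runs of 96, and the log2 ratio was -1.31, -0.78, 1.04, -1.14, -0.75 and -1.29 from run 1 to run 6. Run 3 went the other way, at 31.0 CPM in Ctrl and 65.0 in treated cells, although its share of cells with a read was lower in treated cells (41.0% against 56.8%). In run 5 the sum was lower in treated cells, but the share with a read was higher (60.0% against 56.8%). The mean of log2(CPM + 1) in run 5 differed by -0.04. Without run 3 the ratio over all cells was -1.06. Where cells of 1 sex could be compared, Mecom gave -0.98 (cells with Y-linked reads, block 1) and -1.001 (Xist cells, block 2). Among the reads assigned near Mecom, those of Mecomos, which shares 81 exon bases on the opposite strand, numbered 751 against 21177 for Mecom, and reads of the shared bases cannot be told apart.

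**Figure D1:**
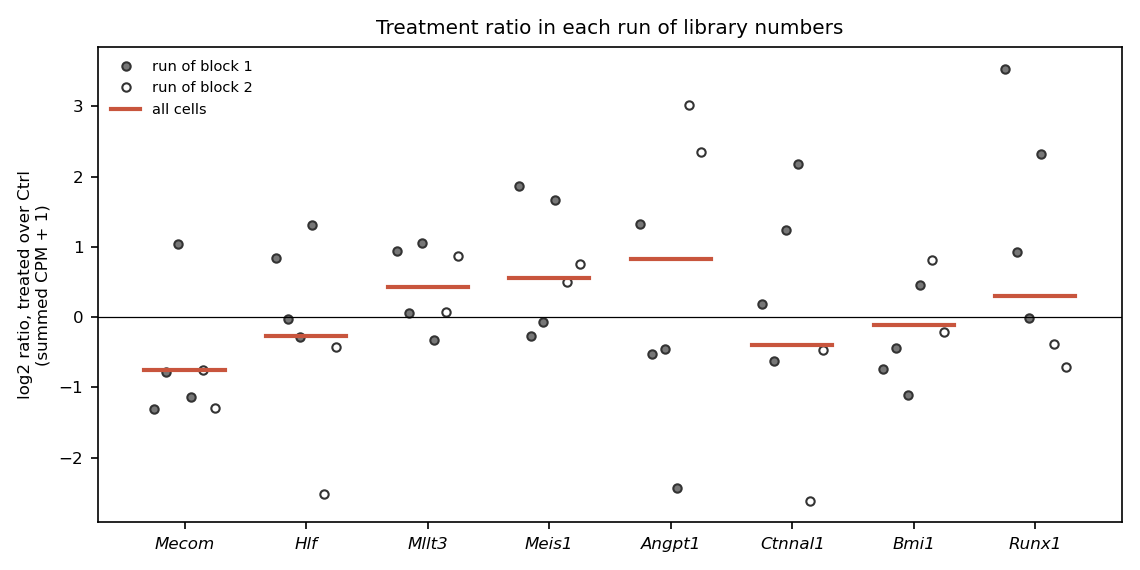
Log2 ratio of summed CPM, treated over Ctrl (1 CPM added to both), for each of the 7 genes and Runx1 in each of the 6 runs of library numbers, filled for the runs of block 1 and open for those of block 2, with the value over all cells as a line. Mecom lies below 0 in 5 of 6 runs, and Angpt1, Ctnnal1 and Hlf spread widely on both sides of 0.

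A gene was called lower or higher in treated cells where its log2 ratio was at or beyond 0.5 with the same sign in both blocks. By this rule 1 of the 6 measured genes of the list, Mecom, was called lower, beside 5.22% of all measured genes, and 1 of 6, Meis1, was called higher, beside 4.77%. The median log2 ratio of the 6 was 0.16, beside 0.01 over all measured genes. The summed level of 6 endothelial markers was 4413 CPM for Ctrl and 3633 CPM for treated cells, with 0 of 6 higher in treated cells. The summed level of 7 blood markers was 176 and 279 CPM, with all 7 higher in treated cells, and their part in the ratios of the 7 genes was not tested. Within clusters 1 to 3 alone, Mecom (-0.69) and Bmi1 (-0.61) were called lower, beside 6.96% of all genes, and none of the 7 was called higher, beside 4.70%. Over the cells of these clusters, the mean of log2(CPM + 1) differed by -0.995 for Mecom and by 0.04 for Bmi1. The share of cells with a read differed by -13.5 points for Mecom (-22.7 to -3.9) and 3.5 for Bmi1 (-5.3 to 12.3). By block, the Mecom share differed there by -19.2 points in block 1 (-29.3 to -8.4) and by 5.2 in block 2 (-14.4 to 24.2). Its mean of log2(CPM + 1) differed by -1.20 and -0.31. The Bmi1 call therefore rested on the sum, and the lower Mecom share rested on block 1. The Mecom ratio with equal cluster shares in both treatments was -0.65.

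Meis1 was higher in the sum and not in the share of cells. Its CPM ran from 0 through a median of 0 to 981 in Ctrl cells and from 0 through a median of 0 to 633 in treated cells, and reads were found in 104 cells of each treatment (43.5% and 42.6%). The summed level was 37.5 CPM (36.7 to 38.3) for Ctrl and 55.5 CPM (54.5 to 56.5) for treated cells, giving a log2 ratio of 0.55 overall and of 0.56 and 0.50 by block. It was above 0 in 4 of 6 runs, the mean of log2(CPM + 1) differed by 0.17, and the call was lost within clusters 1 to 3 (0.15), without run 1 (0.42) and without run 4 (0.42). In cells of 1 sex the ratio was 1.43 (Y-linked reads, block 1) and 1.04 (Xist, block 2). Meis1 also shares 1029 exon bases with Gm37818 on the same strand, which was given 461 reads against 20522 for Meis1.

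The other 5 genes were not called over all cells. Mllt3 stood at 26.3 and 35.9 CPM in Ctrl and treated cells (log2 ratio 0.43, with 0.35 and 0.49 by block), with reads in 53.1% and 52.9% of cells. Angpt1 stood at 7.12 and 13.4 CPM (10.04% and 13.1% of cells), and its blocks gave log2 ratios of -0.70 and 2.81. The opposite signs of the blocks kept it from a call in spite of an overall ratio of 0.82. Ctnnal1 (16.5 and 12.3 CPM, 19.7% and 22.5% of cells) and Bmi1 (11.4 and 10.4 CPM, 29.3% and 35.7% of cells) also had blocks of opposite sign, at 0.36 and -1.42 for Ctnnal1 and at -0.50 and 0.42 for Bmi1. Hlf was read in 10 Ctrl and 9 treated cells, at 2.03 and 1.51 CPM, and 1 Ctrl cell held 62.3% of the Ctrl reads. Its level by block, 0.60 and 1.92 CPM in block 1 and 5.25 and 0.69 CPM in block 2, followed single cells. The share of treated minus Ctrl cells with a read differed by -0.27 points for Mllt3 (-9.1 to 8.6), -0.50 for Hlf (-4.3 to 3.2), 3.07 for Angpt1 (-2.7 to 8.9), 2.88 for Ctnnal1 (-4.4 to 10.1) and 6.37 for Bmi1 (-2.0 to 14.6), and each of these intervals spans 0.

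By cluster, the 7 genes fell into different patterns, and since the clusters were built on these cells the levels are given as a description. Mecom was high in clusters 1 to 4. Its level was 82.9 CPM in cluster 4, 63.9 in cluster 3, 59.9 in cluster 2 and 48.1 in cluster 1, and 6.35, 5.85 and 0.71 CPM in clusters 7, 5 and 6. Over cells the means of log2(CPM + 1) were 4.07 ± 3.39, 2.81 ± 3.34, 3.29 ± 3.12 and 3.26 ± 3.03 (SD) in clusters 4, 3, 2 and 1, and 0.25 ± 0.71 in cluster 6. The means of clusters 1 to 4 lay within this spread between cells, which does not measure the error of a mean. In clusters 6 and 7, Mecom was read in 18.2% and 25.0% of cells, and in cluster 7 nearly all its reads came from 1 treated cell.

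Meis1 was high in clusters 4 to 7. It stood at 224 CPM in cluster 5, 199 in cluster 7, 196 in cluster 4 and 103 in cluster 6, and at 32.8, 23.6 and 5.03 CPM in clusters 3, 2 and 1. Every cell of clusters 5 and 7 had a Meis1 read, against 32.8% to 34.3% of cells in clusters 1 to 3, where the median positive cell of cluster 1 held 1 read. The means of log2(CPM + 1) were 7.11 ± 1.83 in cluster 7, 6.94 ± 2.01 in cluster 5, 5.87 ± 3.12 in cluster 4 and 4.57 ± 3.34 in cluster 6, then 1.39 ± 2.44, 1.36 ± 2.44 and 0.84 ± 1.65 in clusters 2, 3 and 1. Neighbours in this order lay within 1 SD of each other apart from clusters 6 and 2. That gap exceeded the SD of cluster 2 and not that of cluster 6.

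**Figure D2:**
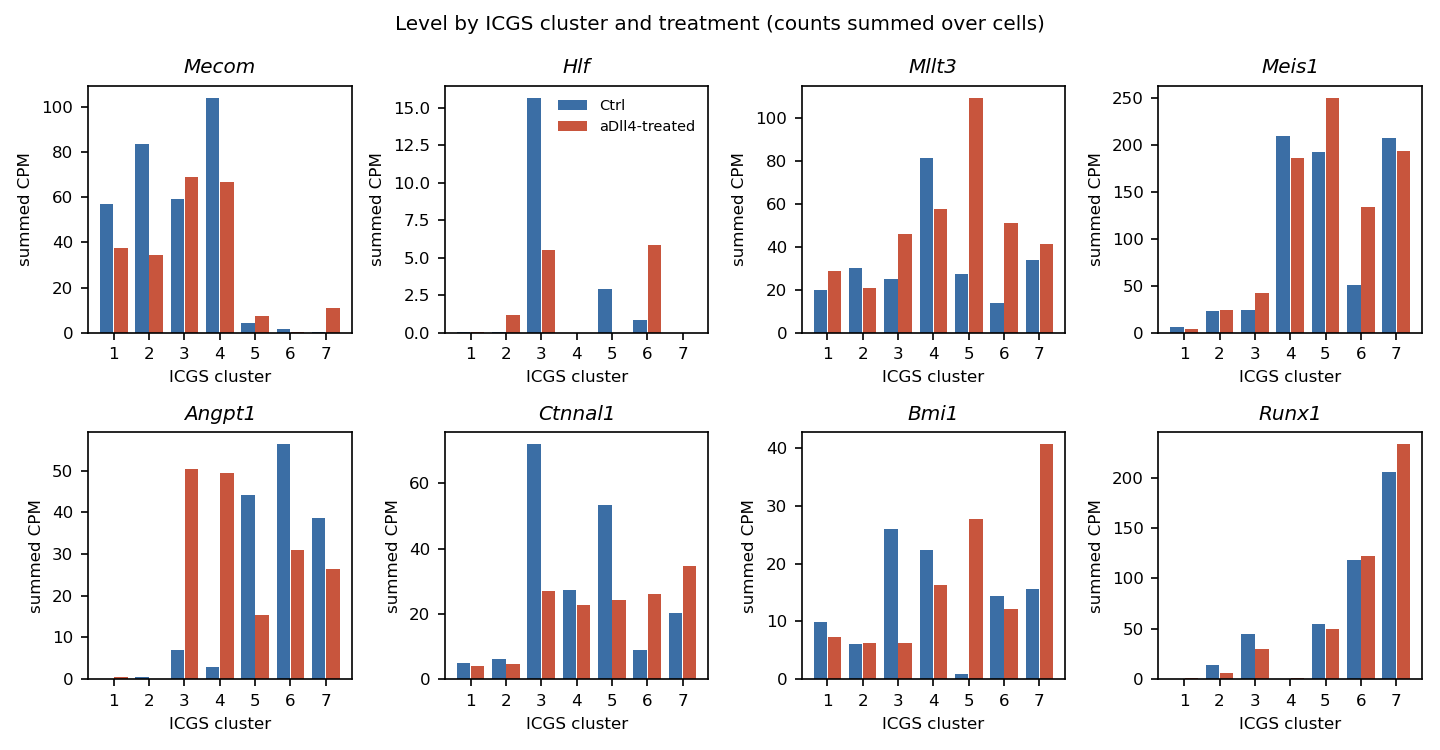
Summed CPM of each of the 7 genes and Runx1 in the 7 clusters, with Ctrl and treated cells as separate bars on a linear axis of its own for each gene. Mecom is high in clusters 1 to 4 and low in clusters 5 to 7, Meis1 is highest in clusters 4, 5 and 7, and Hlf peaks in cluster 3 for Ctrl (15.7 CPM) and stands at 5.54 CPM there for treated cells. These Hlf levels rest on single cells, since 1 Ctrl cell held 283 reads (the next 42) and 1 treated cell 121 (the other 11).

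Mllt3 was the most evenly spread. Its level ran from 23.9 CPM in cluster 1 through 25.5, 35.0, 37.4 and 38.1 CPM in clusters 2, 3, 6 and 7 to 67.8 CPM in cluster 4 and 71.6 CPM in cluster 5, with reads in 38.8% (cluster 3) to 81.8% (cluster 4) of cells. The means of neighbouring clusters in that order differed by less than the SD over cells. Bmi1 ran from 6.14 CPM in cluster 2 to 30.1 CPM in cluster 7, with reads in 23.9% to 28.96% of the cells of clusters 1 to 3 and in 38.5% to 63.6% of those of clusters 4 to 7.

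Angpt1 and Ctnnal1 were low in clusters 1 and 2. Angpt1 stood at 0.26 and 0.24 CPM there, with reads in 3.3% and 3.4% of cells, and between 27.5 and 40.2 CPM in the other 5 clusters. The share of cells with an Angpt1 read went from 14.9% in cluster 3 through 22.7%, 30.3% and 53.8% in clusters 4, 6 and 5 to 65.0% in cluster 7, so the cluster 3 sum rested on fewer cells. In cluster 3, 1 treated cell at 973 CPM held 72.1% of the treated reads. Ctnnal1 was highest in cluster 3 at 50.8 CPM and stood between 19.8 and 37.8 CPM in clusters 4 to 7, against 4.51 and 5.37 CPM in clusters 1 and 2. Tek, the receptor of Angpt1, stood at 254, 336 and 266 CPM in clusters 1 to 3 and at 26.2 CPM or less in clusters 4 to 7.

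Hlf was concentrated in a few cells of cluster 3. It was read in 7 of 67 cells there (10.4%, 4.3 to 20.4) at 10.9 CPM (5 of 31 Ctrl and 2 of 36 treated cells), in 4 of 33 cells of cluster 6 at 4.01 CPM and in 1 cell of cluster 5. In clusters 1 and 2 it was read in 2.2% and 2.1% of cells at 0.03 and 0.57 CPM, the latter almost all from 1 cell. No read was found in clusters 4 and 7, which allows a share of up to 13.6% of 22 cells and 15.0% of 20 cells.

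**Figure D3:**
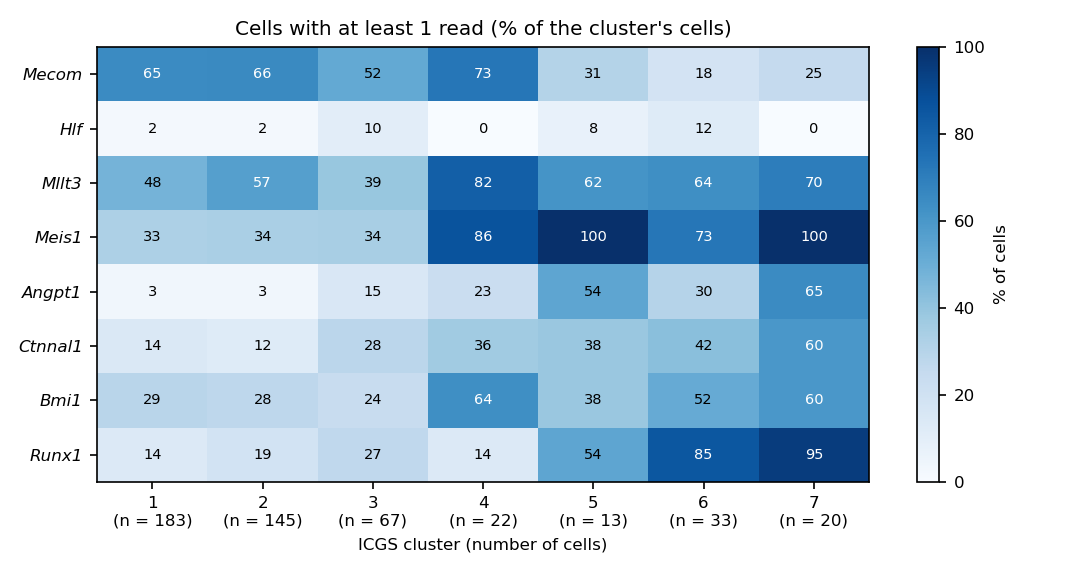
Share of cells with at least 1 read of each gene (rows) in each cluster (columns), both treatments together, in percent and as colour. Meis1 reaches 100% in clusters 5 and 7, Mecom is read in 52.2% to 72.7% of the cells of clusters 1 to 4, and the highest share of Hlf is 12.1%, in cluster 6.

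Within clusters, the treatments were compared by the same rule. In cluster 1, Mecom was called lower (57.2 and 37.4 CPM in Ctrl and treated cells, log2 ratio -0.60, 71.1% and 58.1% of cells) and Meis1 lower (-0.75), beside 10.1% of all genes. Mllt3 was called higher there (0.50, from 19.9 to 28.7 CPM), beside 6.54%. The mean over cells of log2(CPM + 1), treated minus Ctrl, differed there by -0.81 for Mecom, -0.22 for Meis1 and -0.02 for Mllt3. In cluster 2, Mecom was called lower with the widest gap of clusters 1 to 3 (83.9 and 34.3 CPM, -1.27, 76.7% and 54.2% of cells), and Mllt3 was called lower at the edge of the rule (29.95 and 20.8 CPM, -0.50), beside 9.39% of all genes. By block, the Mecom ratio of cluster 2 was -0.82 and -2.56.

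In cluster 3, Mecom was not lower. Its level there was 59.1 CPM for Ctrl and 69.2 CPM for treated cells, and the ratios by block were 1.54 and -0.14. Mllt3 (25.1 and 46.1 CPM, 0.85) and Meis1 (0.76) were called higher there beside 17.3% of all genes, and Ctnnal1 (72.0 and 26.9 CPM, -1.39) and Bmi1 (26.1 and 6.25 CPM, -1.90) lower beside 14.8%. Single cells weighed heavily in these sums, since 1 Ctrl cell held 54.6% of the Ctrl reads of Bmi1 and 1 treated cell held 46.6% of the treated reads of Meis1. The mean over cells of log2(CPM + 1) differed in cluster 3 by 0.01 for Mllt3, 0.13 for Meis1, -0.87 for Ctnnal1 and -0.34 for Bmi1. In clusters 6 and 7 together, Hlf (1.69, from 1 Ctrl and 3 treated cells), Mllt3 (1.07) and Ctnnal1 (1.04) were called higher, beside 15.8% of all genes. Ctnnal1 was read there in 7 of 22 Ctrl and 19 of 31 treated cells, a difference of 29.5 points (2.3 to 51.0), at 13.7 and 29.1 CPM.

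Runx1 itself separated the clusters. It was read in 28 of 33 cells of cluster 6 and 19 of 20 of cluster 7, at 121 and 222 CPM, and in 53.8% of cluster 5 at 52.2 CPM. In clusters 1 to 3 it was read in 26.9% of cluster 3 at 38.0 CPM, in 18.6% of cluster 2 at 10.1 CPM and in 13.7% of cluster 1 at 0.53 CPM, where the median positive cell held 1 read and 4 cells held 5 or more. Because a single read is more often found in a deeper library, each cell was thinned to 120000 reads before Runx1 and the 7 genes were counted in the same cell.

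After thinning, 30 cells of clusters 1 to 3 had a Runx1 read and 365 did not, and 6 of the 7 genes were read more often by at least 10 points in the cells with Runx1. Over the 12807 genes read in at least 5% of these thinned cells, a requirement that Hlf and Angpt1 did not meet, 8.45% passed the same mark and 13.3% were as much lower. Hlf was read in 5 of 30 cells with Runx1 (16.7%) and in 4 of 365 without (1.1%), a difference of 15.6 points (6.1 to 32.5). Of the 9 cells with Hlf, 55.6% had Runx1. Angpt1 was read in 6 of 30 and 4 of 365, a difference of 18.9 points (8.3 to 36.2), and Meis1 in 36.7% and 16.2%, a difference of 20.5 points (5.1 to 38.6). For Ctnnal1 the shares were 23.3% and 11.0% (12.4 points, 0.3 to 30.2). The intervals of Mecom (63.3% and 47.4%, 15.9 points, -2.6 to 31.6) and Mllt3 (46.7% and 33.7%, 13.0 points, -4.2 to 30.8) span 0. Bmi1 was the exception, at 13.3% of cells with Runx1 and 18.9% without (-5.6 points, -14.7 to 11.2).

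The 2 blocks differed in how many genes passed the mark. In block 1 (18 cells with Runx1, 282 without), 3 of the 7 passed, Meis1 by 18.8, Angpt1 by 15.96 and Hlf by 10.05 points, beside 10.7% of all genes. Mllt3 differed there by 3.43 points, and Mecom (-6.97), Ctnnal1 (-0.59) and Bmi1 (-2.48) were read less often in the cells with Runx1. In block 2 (12 cells with Runx1, 83 without), 6 of 7 passed, beside 29.1% of all genes, with 57.9 points for Mecom and -9.74 for Bmi1. Hlf did not meet the requirement there either.

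The joint presence lay in cluster 3. There, with 8 cells with Runx1 and 59 without, Mllt3 was read in 87.5% and 20.3%, Hlf in 62.5% and 3.4%, Angpt1 in 62.5% and 5.1%, Meis1 in 62.5% and 13.6%, Mecom in 75.0% and 33.9%, Ctnnal1 in 4 of 8 cells and 23.7%, and Bmi1 in 25.0% and 16.9%. In cluster 3, however, 38.9% of all genes passed the mark of 10 points that 6 of the 7 passed, and 16.1% were as much lower, which none of the 7 was. The cells with Runx1 had more genes after thinning (median 5863 against 4469), more total reads (1031110 against 626398), a higher sum of blood markers (542 against 47.4 CPM), of megakaryocyte markers (165 against 5.92 CPM) and of mesenchymal and smooth muscle markers (581 against 143 CPM), and a lower sum of endothelial markers (2347 against 4294 CPM). The part of these differences in the shares was not tested. On the counts as deposited, 18 cells of cluster 3 had Runx1. Of these 27.8% had Ctnnal1 and 22.2% Bmi1, against 19 and 16 of all 67 cells, so neither was higher with Runx1. Mllt3 was read in 9 of the 18 and in 26 of the 67. Mecom, Hlf, Meis1 and Angpt1 were read in 72.2%, 27.8%, 44.4% and 33.3% of the 18, against 35, 7, 23 and 10 of the 67. In clusters 1 and 2, with 22 cells with Runx1 and 306 without, 1 of 7 genes passed the mark (Meis1, by 10.6 points), beside 8.42% of all genes, and Mecom differed by 9.1 points. In clusters 6 and 7, where 44 cells had Runx1 and 9 did not, Meis1 (53.0 points) and Angpt1 (36.6 points) passed the mark, beside 51.1% of all genes.

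**Figure D4:**
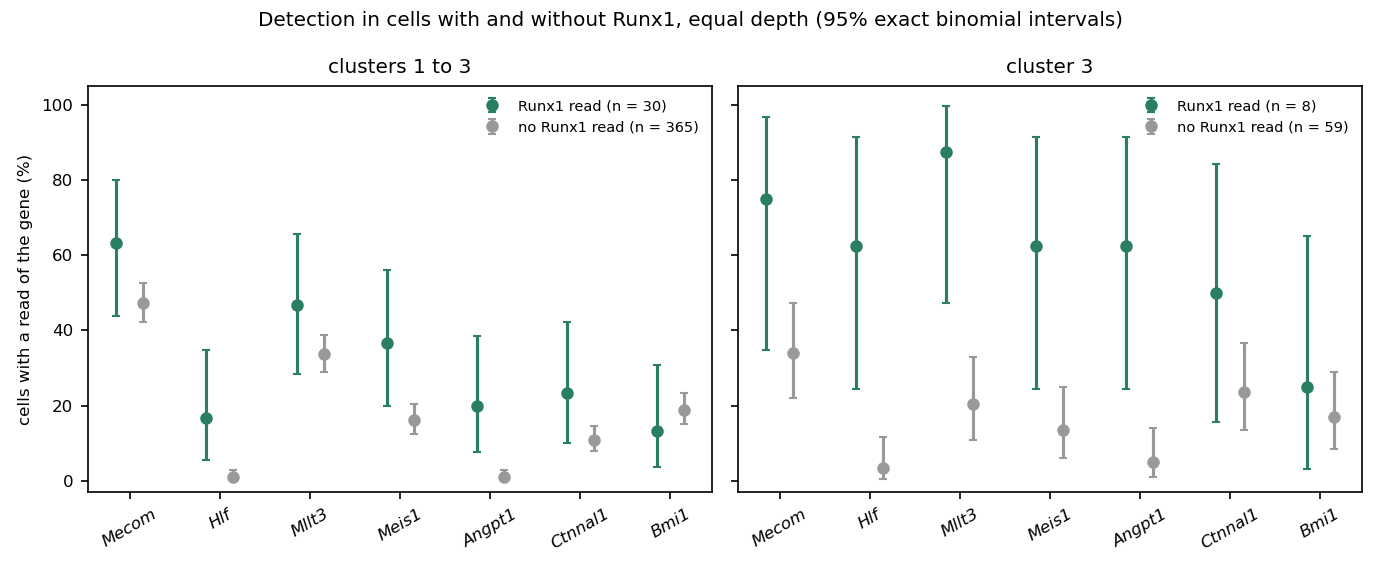
Share of thinned cells with a read of each of the 7 genes, in cells with and without a Runx1 read, for clusters 1 to 3 together and for cluster 3 alone, with exact 95% binomial intervals. In the thinned cells of cluster 3 those with Runx1 lie higher for all 7 genes, by 67.2 points for Mllt3 and by 8.1 points for Bmi1. On the counts as deposited, which are not drawn, Ctnnal1 and Bmi1 were not higher there.

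The joint presence was also counted in each treatment. Among Ctrl cells of clusters 1 to 3 (12 with Runx1, 189 without), the share was higher with Runx1 by 41.4 points for Meis1, 32.8 for Hlf, 32.8 for Angpt1, 31.7 for Mllt3, 30.6 for Ctnnal1, 29.9 for Mecom and 7.5 for Bmi1, so that 6 of 7 passed the mark, beside 16.5% of all genes. Those genes were again read in at least 5% of the cells compared, which Hlf and Angpt1 were not. Among treated cells (18 with Runx1, 176 without), the differences were 6.9 points for Meis1, 3.9 for Hlf, 9.4 for Angpt1, 0.9 for Mllt3, 0.3 for Ctnnal1, 9.1 for Mecom and -14.9 for Bmi1, and none of the 7 passed the mark, beside 13.5% of all genes. Whether the treatments differ in this was not tested. On the counts as deposited, with 70 cells with Runx1 and 325 without, the shares were 71.4% and 61.2% for Mecom, 11.4% and 1.8% for Hlf, 45.7% and 50.2% for Mllt3, 41.4% and 31.7% for Meis1, 7 of 70 and 14 of 325 cells for Angpt1, 18.6% and 15.4% for Ctnnal1, and 21 of 70 and 88 of 325 cells for Bmi1. Over all 7 clusters, Mecom was read less often in the cells with Runx1 (a difference of -21.9 points), and 44 of those 80 cells lay in clusters 6 and 7. In clusters 4 and 5, Mecom was read in 0 of 6 cells with Runx1 (exact interval up to 45.9%) and in 51.7% of 29 cells without. Of these clusters, cluster 5 had Runx1 reads in a larger share of its cells and had the lower Mecom level. The part of this in the difference was not tested.

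The 19 cells with Hlf were also looked at one by one, on the counts as deposited. Of them 13 had at least 5 Hlf reads, 13 had a Runx1 read, 12 Mecom, 11 Mllt3, 10 Meis1, 9 Angpt1, 8 Ctnnal1 and 8 Bmi1. The highest was a treated cell of cluster 3 at 116 CPM of Hlf, with Runx1 at 153, Meis1 at 117, Mllt3 at 76.8 and Mecom at 0.96 CPM. The next 3 were Ctrl cells of cluster 3, at 98.6, 92.4 and 82.8 CPM of Hlf. Their Runx1 was 265, 515 and 390 CPM and their Mecom 192, 280 and 374 CPM, and the second of them had the highest Mllt3 level of any Ctrl cell, at 599 CPM. The fifth was a treated cell of cluster 6 at 71.8 CPM of Hlf, with Runx1 at 290 CPM and no Mecom read.

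The Hlf cells of clusters 3 and 6 were set beside the other cells of their clusters. All 7 Hlf cells of cluster 3 had Mecom reads, 2 of them at 0.95 and 0.96 CPM, and the 7 stood at 155 CPM summed, against 46.3 CPM in the 60 cells of cluster 3 without Hlf. None of the 4 Hlf cells of cluster 6 had a Mecom read, in a cluster where 18.2% of all cells had one. All 4 had Runx1 (200 CPM summed, 28.9 to 294 CPM in single cells) and Angpt1 (248 CPM summed, 53.9 to 589 CPM). The cell lowest in Angpt1 had 1 Hlf read. In the 7 cells of cluster 3, Mllt3 stood at 68.9 CPM against 28.4, Runx1 at 164 against 13.5, Procr, the endothelial protein C receptor, at 215 against 75.4, and the transcription factor Mycn at 330 against 55.7 CPM. The blood transcription factors Myb and Gfi1 stood at 97.2 against 0.05 and at 94.98 against 6.81 CPM, and Cdh5 was read in all 7, at 141 against 301 CPM. These 7 cells also had more total reads (median 1041350 against 613973) and more genes after thinning (5829 against 4435), and their part in the differences was not tested.

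**Figure D5:**
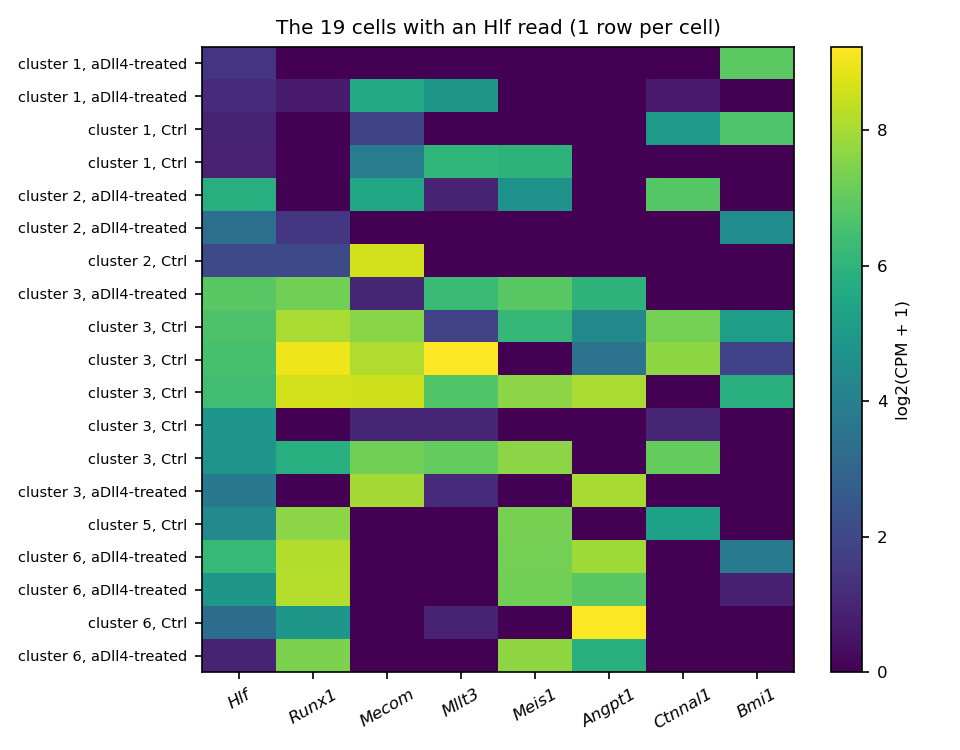
Colour gives log2(CPM + 1) of Hlf, Runx1 and the other 6 genes in each of the 19 cells with an Hlf read, 1 row per cell, ordered by cluster and then by Hlf level. The 4 cells highest in Hlf lie in cluster 3 and have Runx1 at 153 to 515 CPM, and the Hlf cells of cluster 6 have no Mecom read.

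Over the 395 single cells of clusters 1 to 3, the 7 genes were weakly related to each other in log2(CPM + 1). The highest Pearson r was 0.48, between Hlf and Angpt1, followed by 0.32 between Meis1 and Angpt1, 0.23 between Hlf and Ctnnal1 and 0.20 between Hlf and Meis1. Mecom and Bmi1 had r of -0.05. Cells share depth and the same few positive cells carry the Hlf values, so these are descriptions of these libraries.

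Across the 14 sums of cluster and treatment, the genes whose level was most like that of Mecom were Sesn3 (r = 0.95), Fam149a (0.91) and Nectin3 (0.91), yet in single cells of clusters 1 to 3 their r with Mecom was -0.03, -0.11 and -0.03. The genes most like Meis1 were Cenpm (0.92) and Thoc3 (0.91), with r of 0.14 and 0.11 in single cells. For Hlf they were Snora68 (0.91), Tpt1 (0.85) and Klhl11 (0.84), for Angpt1 Aes (0.92), Commd3 (0.89) and Psmc3ip (0.86), and for Mllt3 Ap3d1 (0.85) and Pja1 (0.84). Those of Ctnnal1 were Polb (0.87), Pdrg1 (0.86) and Ndufa13 (0.81), and those of Bmi1 were Zfp729a (0.90), Zranb3 (0.84) and Mycbp (0.83). Each r is over 14 points drawn from the same cells and chosen as the highest of 10569 genes.

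The paralogs and partners of the 7 genes were followed over all cells by the same rule, beside a median log2 ratio of 0.01 over all measured genes. Of the 4 listed for Mecom, its paralog Prdm16 was called higher (4.76 and 8.50 CPM in Ctrl and treated cells, log2 ratio 0.72), and the list had a median of -0.07. The relatives of Hlf were all above 0. Tef was called higher (5.78 and 9.93 CPM, 0.69), Dbp stood at 1.43 and 2.43 CPM (0.49), and the median of the 3 was 0.49. Among 11 Meis and Hox partners, 4 were above and 7 below 0, with a median of -0.08, and 1, Meis3, was called higher (4.76 and 7.62 CPM, 0.58). Hoxa9 stood at 37.4 and 27.2 CPM (-0.44).

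Of the 12 measured genes of the Mllt3 complexes, 6 were above and 6 below 0 and none was called (median 0.04), with Dot1l, the histone methyltransferase bound by Mllt3, at 28.6 and 37.7 CPM (0.39). Of 15 genes of the Polycomb complex, 2 were called higher and 1 lower, with a median of -0.06. Those called higher were Cbx7 (1.01 and 4.81 CPM, 1.53) and Pcgf5 (19.5 and 28.2 CPM, 0.51). Rnf2, the ubiquitin ligase of the complex, stood at 149 and 144 CPM (-0.06), and Cdkn2a, a classic target of Bmi1, was listed at 0. All 4 measured genes of the angiopoietin and Tie list were below 0, with a median of -0.37. Ptprb, a phosphatase that acts on Tie2, was called lower (138 and 89.1 CPM, -0.63, below 0 in 6 of 6 runs), and Tek stood at 249 and 211 CPM (-0.24). The endothelial marker sum was lower in treated cells too, as given above. The only alpha-catenin measured of 3 listed was not called.

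Of 24 other measured stem cell regulators, 12 were above and 12 below 0, with a median of 0.01. Of these, 2 were called higher, among them Mycn (77.8 and 142 CPM, 0.86), and 1 was called lower, Tcf15, a factor linked to stem cell quiescence (12.1 and 6.94 CPM, -0.72). Mycn was above 0 in 6 of 6 runs, and within clusters 1 to 3 its log2 ratio was 0.82. By block its ratio was 1.16 in block 1 and only 0.07 in block 2. The summed level of 3 megakaryocyte markers was 284 CPM for Ctrl and 554 CPM for treated cells.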

How the data were processed

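Single-cell libraries of 483 cells (239 Ctrl, 244 aDll4-treated) were read from 1 table of counts per gene and cell that the authors deposited, with no normalization. Reads were aligned with GSNAP to mm10 and counted with HTSeq 0.6.0, per the submitters' processing notes; the strand setting is not given in the sources used here, so reads of exons that overlap on opposite strands cannot be told apart. Names and exon lengths came from the GENCODE M21 annotation, which gave a symbol to 45143 of 46078 gene identifiers.

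Counts were divided by each library's total to give CPM, or summed over the cells of a group and then divided. Intervals at 95% are exact Poisson (levels), Clopper-Pearson (shares) and Newcombe (differences of shares). Reads without molecular identifiers are not independent molecules, so all intervals and limits (3 counts for a share of 0) cover counting error only. Log2 ratios carry 1 CPM added to both sums. Thinning drew 120000 reads per cell without replacement (seed 1), and no cell was shallower. No further cell was left out, no doublet caller was run, and no 2 libraries held identical counts. Blocks were set at the widest gap in the library numbers, and runs are stretches of 96 numbers. A cell was given a sex call from at least 10 reads.

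The 7 genes and the gene lists were chosen with earlier results of these data known. Beyond the 7 genes and Runx1, the text names from each list the genes called higher or lower (at most 4), a fixed set of partners (Prdm16, Hoxa9, Tek, Rnf2, Cdkn2a, Dot1l, Dbp, Tef) and, per gene, the 3 genes of most similar level among those with a read in at least 10% of cells; some genes that this rule names are not reported here. Genes named in single Hlf cells (Procr, Mycn, Myb, Gfi1) come from the lists and were chosen after their values were seen. Alternatives were other pseudocounts, cell means, thinning, edgeR's TMM factors, median-of-ratios size factors, single blocks and clusters, and cells of 1 sex; leaving out each run was added after seeing the data. The computations used Python 3.11.15 (numpy 2.4.6, pandas 2.3.3, scipy 1.17.1, matplotlib 3.10.9) and R 4.3.3 with edgeR 4.0.16, and were tested on simulated data.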

Additional observations from a re-analysis of the deposited data

Results flagged for a closer look

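Of the 7 genes, 3 had log2 ratios of treated over Ctrl that were called in opposite directions in different clusters, with both blocks of library numbers on the same side within each cluster. Of 15182 genes that reached 5% of cells in 2 or more of these cell sets (clusters 1, 2 and 3, and 6 with 7), 1969 (13.0%) were called both ways by the same rule. By summed level, Mllt3 was higher in treated cells in cluster 1 (0.50), cluster 3 (0.85) and clusters 6 and 7 together (1.07). It was lower in cluster 2 (-0.50). As a mean over cells of log2(CPM + 1), Mllt3 differed by -0.02, 0.01, 1.04 and -0.48 in these 4 sets. Meis1 was lower in the sum in cluster 1 (-0.75) and higher in cluster 3 (0.76), with -0.22 and 0.13 as means over cells. Ctnnal1 was lower in cluster 3 (-1.39) and higher in clusters 6 and 7 together (1.04), with -0.87 and 1.83 as means over cells. The difference between clusters was not tested for any of the 3, since each treatment counts as 1 sample.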

How the results depend on the processing

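The direction of the Mecom ratio held in 20 of 20 other settings, from -1.07 to -0.59 on the log2 scale. It was -0.63 with 10 CPM added, -0.99 as a mean over cells, -0.95 after thinning, -0.69 in clusters 1 to 3, -0.65 at equal cluster shares, -0.59 and -1.07 in blocks 1 and 2, -0.98 in cells with Y-linked reads of block 1, -1.001 in Xist cells of block 2, and -1.06 to -0.64 with 1 run left out. Against 1 gene called lower, the count was 2 in clusters 1 to 3, 2 and 3 in blocks 1 and 2 (each block alone has no second block to match), 3 in Xist cells and 1 to 2 with 1 run left out. Against 1 called higher (Meis1), it was 0 with 10 CPM added, as a mean over cells, after thinning, in clusters 1 to 3 and at equal cluster shares, 2 in block 1, 3 in each set of 1 sex and 0 to 2 with 1 run left out. Over the 20 settings the ratio ran from -2.60 to 1.07 for Hlf, -0.07 to 1.13 for Mllt3, 0.15 to 1.43 for Meis1, -0.70 to 2.81 for Angpt1, -1.42 to 0.36 for Ctnnal1 and -0.61 to 0.47 for Bmi1. Against 6 genes read more often with Runx1 by 10 points, the count was 1 on the counts as deposited, 0 in treated cells, 3 in block 1, 1 in clusters 1 and 2 and 5 with at least 5 reads. Differences that turned negative were Mecom in block 1 (-6.97) and over all clusters (-21.9), Hlf in clusters 1 and 2 (-0.65), Mllt3 on the counts as deposited (-4.44) and in clusters 1 and 2 (-4.46), and Ctnnal1 in block 1 (-0.59). The causes were not tested. No paired analysis was possible because the labels pair no Ctrl cell with a treated cell. Hlf, with reads in 19 cells, is limited by the number of cells that carry it.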
